A study of Mus musculus with 12 samples.

Results

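The Hedgehog pathway was examined through 9 genes: the ligand genes Ihh, Shh and Dhh, the receptor genes Ptch1 and Smo, the transcription factor genes Gli1, Gli2 and Gli3, and Hhip, which encodes a ligand-binding inhibitor. They were chosen by name as the core of the pathway, and they are 9 of the 34836 gene names on the array, with 13 of its 55681 probes. Of these 13 probes, 9 stood well above background throughout 1 group or more and were tested. The other 4, which were the only probe for Shh, both probes for Hhip and a further probe for Gli1, were not tested.

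Hedgehog ligands are secreted, lipid-modified proteins. In their absence Ptch1 holds Smo inactive, and binding of a ligand releases Smo, which acts through the primary cilium on the Gli factors. Gli2 acts mainly as an activator, Gli3 is largely processed to a repressor, and Gli1, Ptch1 and Hhip are themselves common target genes of the pathway. In the early mouse embryo Ihh is made by the visceral endoderm, an extraembryonic layer that signals to the tissues beside it.

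Gene expression was measured with 1-colour Agilent mouse arrays in 4 groups of 3 arrays. All 4 groups were mouse embryonic stem (ES) cells that carried Gata6GR, a fusion of Gata6 with the ligand-binding domain of the human glucocorticoid receptor, driven by the ubiquitous CAG promoter. One genotype was Sox7+/- and the other Sox7-/-, and RNA was collected at day 4, without or with dexamethasone (Dex). Cells without Dex are called ES cells here, as by the authors. Dex moves the fusion into the nucleus and gives XEN-like cells, a culture model of extraembryonic endoderm. Both genotypes therefore lack at least 1 copy of Sox7, no Sox7+/+ cells were included, and the Sox7-/- line was derived from the Sox7+/- line by puromycin selection, so that each genotype is represented by 1 clonal line. The labels do not say whether the 3 arrays of a group came from separate cultures, so p-values measure the spread between these arrays, which may be technical.

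Levels are given as the percent of the 75th percentile of all spots on the same array, and differences as log2 values from limma with the standard error (SE) and the Benjamini-Hochberg adjusted p. A probe was called when the adjusted p was under 0.05 and the change over 2-fold. The array number, 3 per group, limits the precision, and between 41.7% and 52.3% of spots on an array were well above background. Sox7, a transcription factor gene of extraembryonic endoderm, served as the check of the genotype. It ranged from 219 to 230% in Sox7+/- ES cells and from 491 to 690% in Sox7+/- XEN-like cells, and it was not well above background on any Sox7-/- array, at least 24.6-fold lower in ES cells and at least 72.5-fold lower in XEN-like cells. Of the 2 slides used, slide 1 carried all Sox7-/- ES cell arrays and 1 array of Sox7-/- XEN-like cells (replicate 1), and slide 2 the other 8 arrays. Of 8 ES cell markers, each read by its brightest probe, 5 stayed well above background on all 3 arrays of each XEN-like group. Sox2 and Fgf4, each with 1 probe, and the brightest of 3 Nanog probes were not well above background in either XEN-like group. The visceral endoderm markers Afp and Apoa1 were not well above background on any array. All 5 primitive endoderm markers were well above background on every array, also without Dex. However, 1 of the 5 is Gata6, and Gata6GR holds full-length mouse Gata6. Its signal may thus include the fusion, which was not tested. Gata6 averaged 1313% in Sox7+/- and 1896% in Sox7-/- ES cells. It was not called with Dex in Sox7+/- (0.27, adjusted p = 0.236) or Sox7-/- cells (0.36, adjusted p = 0.113). The mean log2 level of the 5 markers per array, Gata6 included and relative to the 75th percentile, ranged from 3.22 to 3.26 in Sox7+/- and from 3.32 to 3.43 in Sox7-/- ES cells. In XEN-like cells it ranged from 4.69 to 5.08 in Sox7+/- and from 5.16 to 5.23 in Sox7-/- cells.

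Sequence upstream of the start is shown for Ihh, which rose with Dex, and for Gli2 and Gli3, which fell, so that the members that moved in opposite directions can be compared. RefSeq promoters on GRCm38.p6, with 250 bases before and 50 bases after the start, were at hand for 7 of the 9 genes, namely all except Shh and Gli1. The 250 bases before the start lie at chr1:74951673-74951922 on the minus strand for Ihh, at chr1:119053620-119053869 on the minus strand for Gli2, and at chr13:15463473-15463722 on the plus strand for Gli3. Each runs 5′ to 3′ in the direction of the gene, and capitals mark the letters CCACCC, the core of the motif bound by Gli factors, or GGGTGG, the same letters on the other strand.
Ihh: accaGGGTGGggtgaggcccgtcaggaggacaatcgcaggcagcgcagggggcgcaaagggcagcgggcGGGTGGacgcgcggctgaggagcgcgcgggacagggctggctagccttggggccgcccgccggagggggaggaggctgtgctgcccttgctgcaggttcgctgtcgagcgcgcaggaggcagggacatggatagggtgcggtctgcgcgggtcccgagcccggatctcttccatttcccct
Gli2: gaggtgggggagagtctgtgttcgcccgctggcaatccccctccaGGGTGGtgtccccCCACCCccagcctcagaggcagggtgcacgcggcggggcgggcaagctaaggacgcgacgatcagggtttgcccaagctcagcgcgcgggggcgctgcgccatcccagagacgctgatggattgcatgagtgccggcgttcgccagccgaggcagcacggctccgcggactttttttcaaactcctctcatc
Gli3: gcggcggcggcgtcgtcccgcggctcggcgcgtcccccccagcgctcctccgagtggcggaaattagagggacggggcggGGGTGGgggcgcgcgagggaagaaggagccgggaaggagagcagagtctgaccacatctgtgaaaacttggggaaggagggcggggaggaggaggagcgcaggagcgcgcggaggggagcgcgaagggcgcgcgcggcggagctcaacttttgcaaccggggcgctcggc

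CCACCC was found in 2 places upstream of Ihh, at bases 246 to 241 and 181 to 176 before the start, both on the strand opposite to the gene. Gli2 also held 2 matches, and Gli3, Dhh, Smo and Hhip held 1 each, while Ptch1 held none. These letters occurred in 31.5% of all 32851 promoters of the same length. The full motif GACCACCCA, which contains the core, was in none of the 7 promoters and in 0.253% of all promoters. The GATA motifs AGATAA and TGATAA were in none of the 7, and in 11.2% and 9.05% of all promoters. A match or its absence describes only the letters in this window.

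Among the ligand genes, Ihh was up-regulated by Dex in both genotypes, and much more in Sox7-/- than in Sox7+/- cells. Its probe A_55_P2152225 (mm9 chr1:74991906-74991965, minus strand) was well above background on all 12 arrays. In Sox7+/- ES cells the 3 arrays gave 503%, 533% and 526%. In Sox7+/- XEN-like cells they gave 3839%, 3652% and 2876%. In Sox7-/- ES cells they gave 118%, 116% and 104%, and in Sox7-/- XEN-like cells 8120%, 8400% and 8013%. The 4 groups did not overlap, with the lowest values in Sox7-/- ES cells and the highest in Sox7-/- XEN-like cells. Dex raised Ihh by 2.72 on the log2 scale in Sox7+/- cells, a 6.59-fold rise (SE 0.10, adjusted p = 8.52e-09). In Sox7-/- cells the rise was 6.18, or 72.5-fold (SE 0.10, adjusted p = 3.67e-11).

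The order of the genotypes was opposite in the ES and the XEN-like state. Without Dex, Ihh was 4.62-fold lower in Sox7-/- than in Sox7+/- cells (log2 difference -2.21, adjusted p = 2.39e-07). With Dex it was 2.38-fold higher in Sox7-/- cells (1.25, adjusted p = 1.84e-05). The Dex response itself differed between the genotypes by 3.46 on the log2 scale, an 11.0-fold difference (SE 0.15, adjusted p = 2.91e-07), and it lay between 3.32 and 3.86 under every alternative processing and with any single array left out. With the slide as a block the Ihh differences were -2.19 in ES cells and 1.26 in XEN-like cells. Only the Sox7-/- XEN-like group was on both slides, so the slide term of any probe rests on replicate 1 of that group. Within slide 2, which holds 2 Sox7-/- and 3 Sox7+/- XEN-like arrays, the difference was 1.26 (adjusted p = 0.00146). No slide held ES cells of both genotypes, so no value within a slide can be had for that comparison. The same holds for the difference of the Dex responses, which contains it. The Dex response in Sox7-/- cells sets ES arrays on slide 1 against XEN-like arrays of which replicates 2 and 3 were on slide 2.

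**Figure D1:**
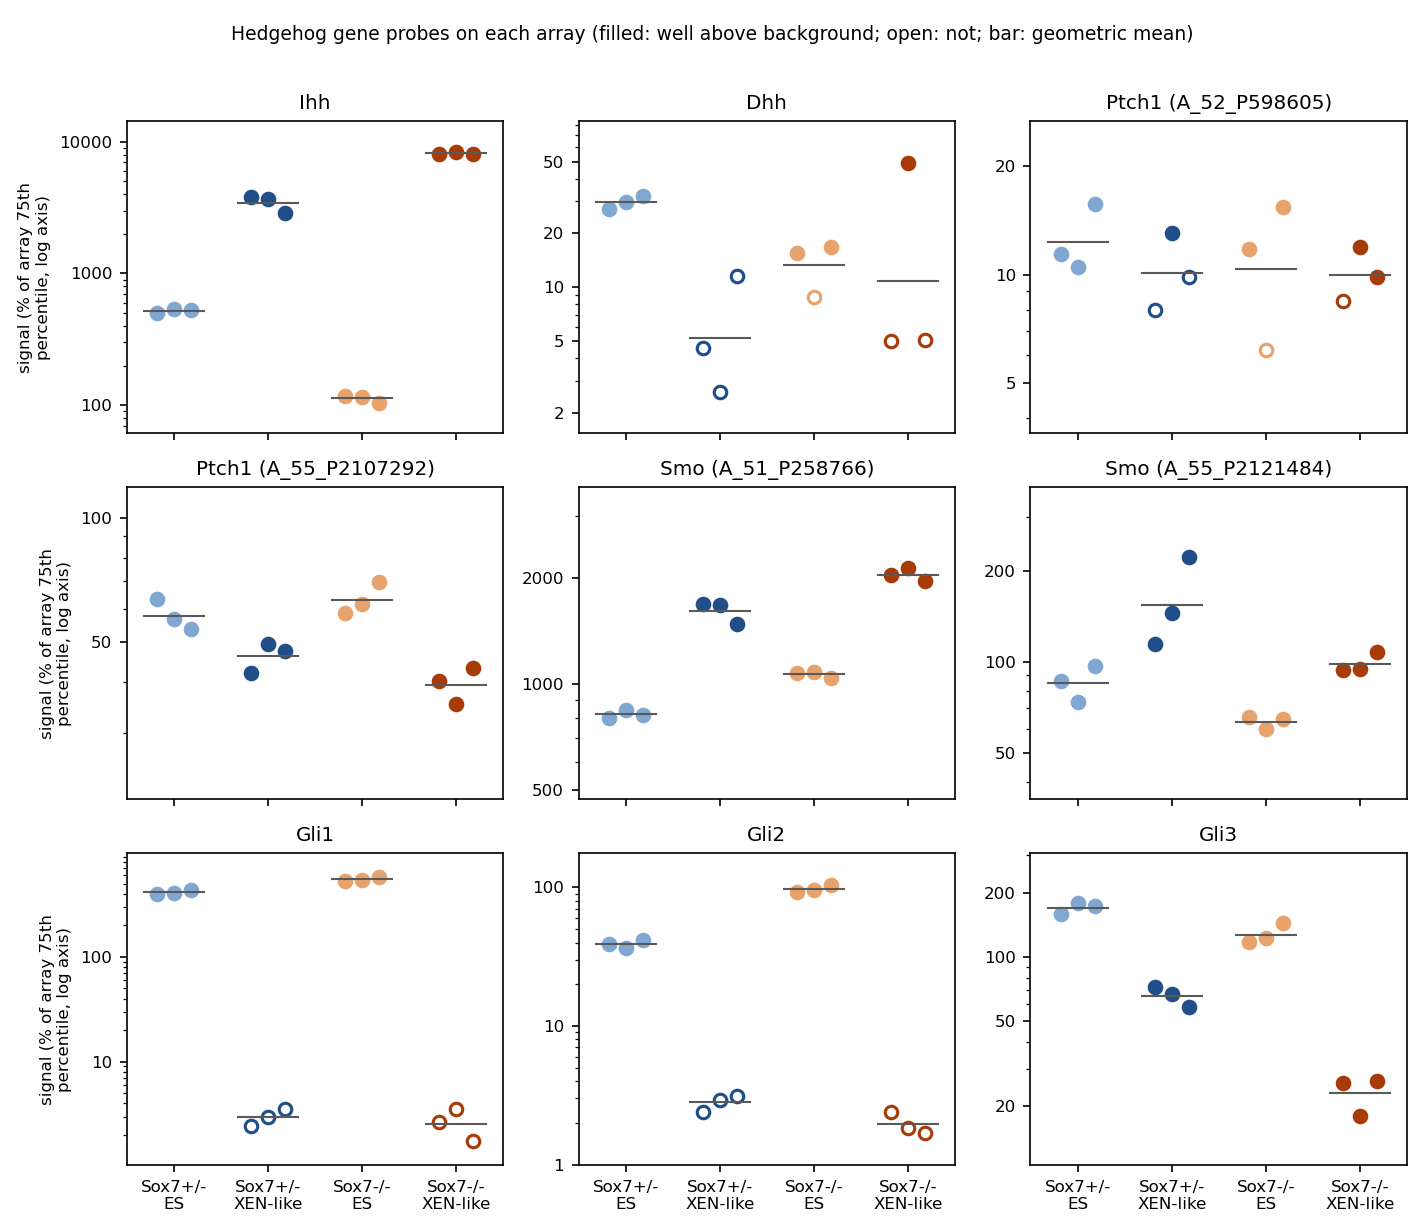
Level of each tested Hedgehog probe on every array, as percent of the array's 75th percentile on a log axis, by group (3 arrays each). Filled points were well above background, open points were not, and the bar is the geometric mean. Ihh spans 104% to 8400% with 4 separate groups, while Gli1 and Gli2 are well above background in the ES groups only.

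Of 11 listed markers of visceral endoderm 9 were tested, and 6 of these were called higher, and none lower, in the XEN-like cells without Sox7, among them Hnf4a, Ttr, Amn and Cubn, against 7.51% of all probes called in either direction. With Dex 2 were called higher and 4 lower in Sox7+/- cells, and 6 higher and 1 lower in Sox7-/- cells, against 24.9% and 28.8% of all probes. The mean log2 level of all 11 per array, relative to the 75th percentile, ranged from 0.87 to 0.97 in Sox7+/- and from 1.96 to 2.0 in Sox7-/- XEN-like cells. In ES cells this mean ranged from 1.03 to 1.15 in Sox7+/- and from 0.28 to 0.35 in Sox7-/- cells, with 3 of 9 markers called lower and none higher, against 8.62% of all probes. These means hold undetected signal. In each XEN-like group 3 of the 11 were well above background on no array, against 2 in Sox7+/- and 4 in Sox7-/- ES cells. Of 10 parietal endoderm markers 3 were called lower and none higher in Sox7-/- ES cells, and the mean log2 level of the 10 ranged from 3.97 to 4.03 against 4.74 to 4.83 in Sox7+/- ES cells. With Dex 8 of the 10 parietal markers were called higher and none lower in each genotype, against 24.9% and 28.8% of all probes. In XEN-like cells their mean log2 level ranged from 6.77 to 6.92 in Sox7+/- and from 6.57 to 6.63 in Sox7-/- cells. Between the XEN-like groups none of the 10 was called. The part of these markers in the Ihh differences was not tested. In RNA from a whole culture, fewer cells of a type and less RNA per cell cannot be told apart.

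Dhh, the ligand gene known from Schwann cells and the testis, gave low and scattered values. Its probe A_52_P232637 (mm9 chr15:98723465-98723524) gave 27.4%, 29.7% and 32.2% in Sox7+/- ES cells, all well above background, and 4.58%, 2.61% and 11.6% in Sox7+/- XEN-like cells, none of them well above background. It gave 15.6%, 8.84% and 16.8% in Sox7-/- ES cells and 4.98%, 49.3% and 5.09% in Sox7-/- XEN-like cells. Replicate 2 of the last group thus stood far above the rest of its group and was its only array well above background. Dhh was called lower with Dex in Sox7+/- cells, at least 2.71-fold (adjusted p = 0.0218), but this call was lost when any 1 of 4 arrays was left out, replicates 2 and 3 of the Sox7+/- ES cells and replicates 1 and 2 of the Sox7+/- XEN-like cells (adjusted p from 0.0516 to 0.0786). In Sox7-/- cells the fitted Dex response was -0.30 (adjusted p = 0.769), and without replicate 2 of the XEN-like cells it was -1.39 (adjusted p = 0.043), which would be called.

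Shh, the ligand gene best known from the neural tube and limb, was not detected. Its probe, spotted 10 times per array, ranged from 1.51 to 2.83% and was not well above background on any of the 12 arrays. Hhip gave the same picture. Its probe A_51_P416822 ranged from 1.49 to 4.12% and A_55_P1969276 from 1.74 to 14.3%, and neither was well above background on any array. No fold is given for these genes.

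The receptor genes changed by less than 2-fold. Ptch1, the Hedgehog receptor, was read by A_55_P2107292 (mm9 chr13:63612879-63612938), which gave 63.5%, 56.7% and 53.6% in Sox7+/- ES cells and 41.9%, 49.3% and 47.5% in Sox7+/- XEN-like cells. In Sox7-/- ES cells it gave 58.7%, 61.7% and 69.6%, and in Sox7-/- XEN-like cells 40.1%, 35.3% and 43.1%. All ES cell arrays were thus above all XEN-like arrays, whereas the genotypes overlapped in both states. The log2 differences with Dex were -0.32 in Sox7+/- (SE 0.11, adjusted p = 0.023) and -0.68 in Sox7-/- cells (SE 0.11, adjusted p = 0.000247), both under the 2-fold threshold. Between genotypes they were -0.23 in XEN-like cells (adjusted p = 0.126) and 0.13 in ES cells (adjusted p = 0.351), with signs that turned under spike-in scaling and, in XEN-like cells, also on the deposited table. The second Ptch1 probe, A_52_P598605, was dim, from 6.18 to 15.7%, was well above background on 8 of 12 arrays and was called in no comparison.

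Smo, the signal-transducing receptor, was read by 2 probes that moved alike with Dex and oppositely with genotype. A_51_P258766 (mm9 chr6:29711225-29711284) gave 800%, 841% and 815% in Sox7+/- ES cells and 1690.0%, 1673% and 1478% in Sox7+/- XEN-like cells. It gave 1075%, 1080.0% and 1037% in Sox7-/- ES cells and 2033%, 2129% and 1954% in Sox7-/- XEN-like cells. The 4 groups did not overlap. The difference with Dex was 0.98 in Sox7+/- cells (SE 0.07, adjusted p = 8.67e-07) and 0.94 in Sox7-/- cells (SE 0.07, adjusted p = 9.16e-07), or 1.97-fold and 1.92-fold, just short of the 2-fold threshold. Without replicate 3 of the Sox7+/- XEN-like cells the first of these was 1.04 and would be called.

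Smo on this probe was higher in Sox7-/- than in Sox7+/- cells by 0.34 in the XEN-like state (adjusted p = 0.00498) and by 0.38 in the ES state (adjusted p = 0.00181). The other probe, A_55_P2121484, ranged from 73.5 to 96.7% in Sox7+/- ES cells, 114 to 222% in Sox7+/- XEN-like cells, 59.6 to 65.3% in Sox7-/- ES cells and 93.4 to 108% in Sox7-/- XEN-like cells. Its differences with Dex were 0.86 (adjusted p = 0.00415) and 0.64 (adjusted p = 0.0181), in the same direction, and the first was 1.08 and would be called without replicate 1 of the Sox7+/- XEN-like cells. Its genotype differences were -0.65 in XEN-like cells (adjusted p = 0.0332) and -0.43 in ES cells (adjusted p = 0.112), opposite in sign to those of the first probe. No direction between the genotypes can therefore be given for Smo.

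All 3 Gli genes fell with Dex in both genotypes. Gli1, whose expression commonly serves as a readout of Hedgehog activity, was read by A_55_P2183587 (mm9 chr10:126766967-126767026). It gave 400.2%, 403% and 434% in Sox7+/- ES cells and 530%, 541% and 571% in Sox7-/- ES cells. In XEN-like cells it gave 2.43%, 2.96% and 3.56% in the Sox7+/- and 2.64%, 3.53% and 1.76% in the Sox7-/- line, and none of these 6 arrays was well above background. Gli1 was thus at least 37.6-fold lower with Dex in Sox7+/- cells (group means 412% and 2.98%, adjusted p = 1.92e-09) and at least 71.9-fold lower in Sox7-/- cells (547% and 2.64%, adjusted p = 7.49e-10). These bounds set the bright group's mean against the lowest signal among probes well above background on each array. The ES groups differed by 0.41 (SE 0.22, adjusted p = 0.154), although their arrays did not overlap. The further Gli1 probe, A_55_P2080658, was well above background on 2 of 12 arrays, replicate 1 of the Sox7+/- ES cells (8.94%) and replicate 3 of the Sox7-/- XEN-like cells (12.5%).

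Gli2 also fell below background with Dex. Its probe A_52_P357829 (mm9 chr1:120731255-120731314) gave 38.9%, 36.6% and 41.4% in Sox7+/- ES cells and 93.2%, 95.1% and 104% in Sox7-/- ES cells. The 6 XEN-like arrays ranged from 1.69 to 3.13%, none well above background. Gli2 was at least 3.55-fold lower with Dex in Sox7+/- cells (group means 39.0% and 2.82%, adjusted p = 5.81e-09) and at least 12.8-fold lower in Sox7-/- cells (97.2% and 1.97%, adjusted p = 2.67e-10). In ES cells Gli2 was 2.49-fold higher in the Sox7-/- line (log2 difference 1.32, SE 0.14, adjusted p = 5.82e-05). With the slide as a block this difference was 0.87 (adjusted p = 0.02), under 2-fold, with the slide term resting on replicate 1 of the Sox7-/- XEN-like cells. No slide held ES cells of both genotypes. The difference of the Dex responses, -1.84 (adjusted p = 0.000103), rests on XEN-like values below background in both genotypes.

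Gli3 was read by a probe well above background on all 12 arrays. This probe, A_51_P171288 (mm9 chr13:15821502-15821561), gave 159%, 180% and 172% in Sox7+/- ES cells and 72.5%, 67.4% and 58.2% in Sox7+/- XEN-like cells. It gave 118%, 122% and 144% in Sox7-/- ES cells and 25.8%, 18.1% and 26.4% in Sox7-/- XEN-like cells. The 4 groups did not overlap, with Sox7-/- XEN-like cells lowest. Gli3 fell by 1.37 on the log2 scale with Dex in Sox7+/- cells (SE 0.15, adjusted p = 2.18e-05), and in Sox7-/- cells it fell by 2.46 (SE 0.15, adjusted p = 2e-07). Among XEN-like cells the Sox7-/- line was 2.85-fold lower (log2 difference -1.51, adjusted p = 6.27e-05), a call lost on the deposited table (-0.73, under 2-fold), and in ES cells the difference was -0.42 (adjusted p = 0.0448), under 2-fold. The Dex responses differed by -1.09 (SE 0.21, adjusted p = 0.00447). The call for the responses also depended on the processing: the difference was -0.69 with spike-in scaling (adjusted p = 0.0822) and -0.36 on the deposited table (adjusted p = 0.367). Without replicate 2 of the Sox7-/- XEN-like cells it was -0.92, under 2-fold.

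**Figure D2:**
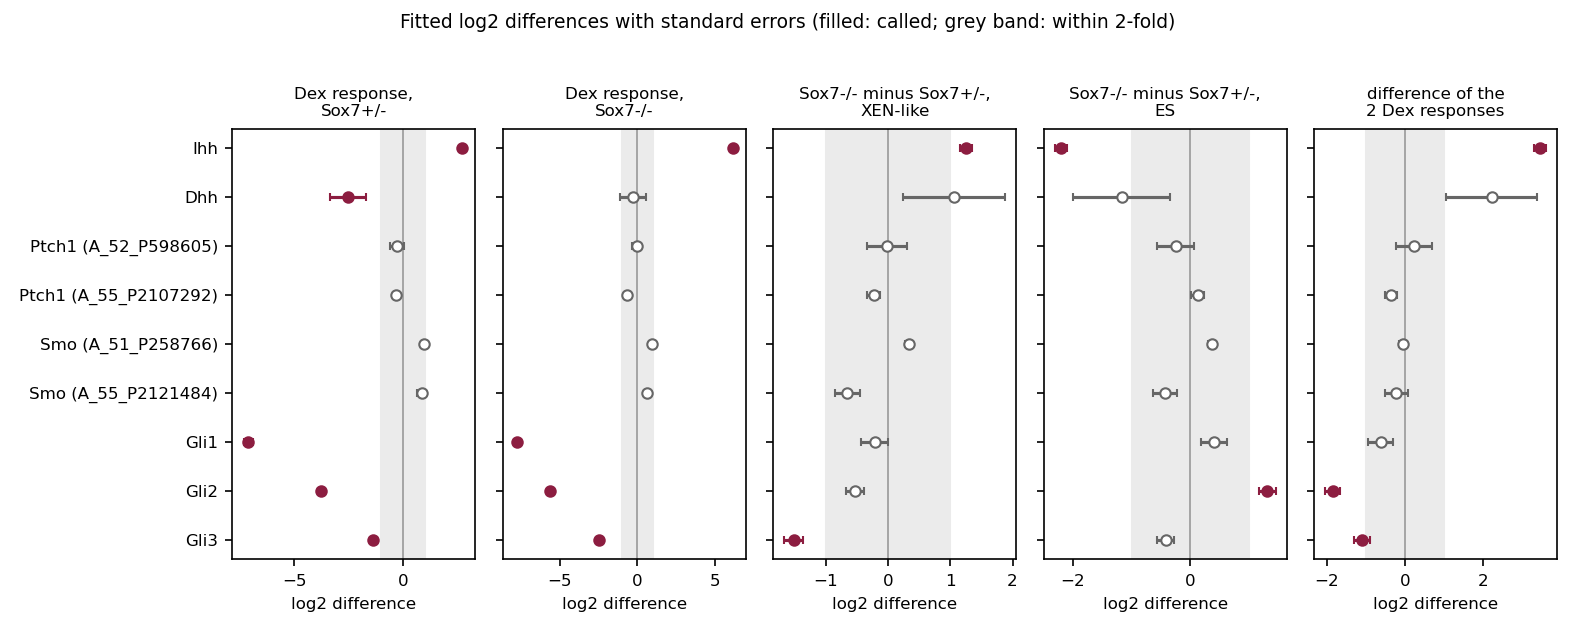
Fitted log2 difference and standard error of each tested Hedgehog probe in the 5 comparisons (3 arrays per group), with called probes filled and the band within 2-fold in grey. Ihh rises and the Gli genes fall in both Dex responses, and 3 probes, for Ihh (3.46), Gli2 (-1.84) and Gli3 (-1.09), are called for the difference of the responses.

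Most markers of ES cells were also called lower with Dex. Of 8 such markers 6 were called lower and 1 higher with Dex in Sox7+/- cells, and 7 lower and none higher in Sox7-/- cells, each marker read by its brightest probe. Beside these stand 24.9% and 28.8% of all probes. One other Nanog probe had the opposite call with Dex in Sox7+/- cells. The mean log2 level of the 8 markers per array went from 4.39 to 4.48 in Sox7+/- ES cells to -1.25 to -0.93 in the XEN-like cells, and from 5.22 to 5.35 to -0.77 to -0.10 in the Sox7-/- line. In each XEN-like group 3 of the 8 were well above background on no array. The XEN-like means thus hold undetected signal, and the size of the fall is uncertain. The part of this change of state in the Gli values was not tested.

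Counted over the core pathway, 5 of 9 tested probes were called with Dex in Sox7+/- cells, against 24.9% of all 25938 probes tested. In Sox7-/- cells 4 of 9 were called, against 28.8%. Between the genotypes 2 of 9 were called in XEN-like cells, Ihh and Gli3, against 7.51% of all probes, and 2 of 9 in ES cells, Ihh and Gli2, against 8.62%. For the difference of the Dex responses 3 of 9 were called, against 9.8%. The probes for Gli1, Gli2 and Dhh were tested only because they were bright in ES cells, so these counts support nothing further. With testing restricted to probes bright on every array, 5 core probes remained, and 2 of them, for Ihh and Gli3, were called with Dex in each genotype. All comparisons use the same 4 groups and thus share arrays.

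Beyond the core, 51 other Hedgehog genes were listed by role, of which 50 had a probe and 43 were tested, each by its brightest probe. With Dex 7 were called higher and 8 lower in Sox7+/- cells, and 8 higher and 6 lower in Sox7-/- cells. These are 34.9% and 32.6% of the 43 genes, beside 24.9% and 28.8% of all probes. The median log2 difference of the 43 was 0.22 and 0.07, beside 0.15 and 0.07 over all probes. Between genotypes 2 were called higher and 2 lower in XEN-like cells, and 4 higher and 3 lower in ES cells, which are 9.3% and 16.3% beside 7.51% and 8.62% of all probes. The Dex response differed for 7, with 4 more positive and 3 more negative in Sox7-/- cells, which is 16.3% beside 9.8%. The counts by role below rest on 4 to 13 genes each and are to be read beside the same shares of all probes.

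In the production and release of ligand, 4 of 6 genes were tested. Scube2, which encodes a secreted protein that helps release the ligand, rose from 714 ± 43.6% to 3198 ± 433% in Sox7+/- cells (SD, n = 3) and from 396 ± 7.75% to 3573 ± 102% in Sox7-/- cells, with log2 differences of 2.15 (adjusted p = 2.66e-08) and 3.17 (adjusted p = 1.33e-09). The responses differed by 1.02 (adjusted p = 0.000494), close to the 2-fold threshold, and its other tested probe was called in the same direction. The call of this probe was lost without replicate 1 of the Sox7+/- ES cells (0.99), replicate 3 of the Sox7+/- XEN-like cells (0.91) or replicate 1 of the Sox7-/- XEN-like cells (0.996). Hhat, the acyltransferase that attaches palmitate to the ligand, was called higher in Sox7-/- cells (1.03, adjusted p = 1.71e-05) but not in Sox7+/- cells (0.60). The call was lost without replicate 1 of the Sox7-/- ES cells (0.97), with the slide as a block (0.99) and within slide 1 (0.99). It was also lost with normexp background correction (0.74) and with scaling to the median of probes well above background (0.91). Spike-in scaling (0.95) and the deposited table (0.78) removed it too. Scube3 fell by 1.14 in Sox7+/- cells (adjusted p = 5.49e-05), with -0.83 in Sox7-/- cells. The other tested probe of Hhat and of Scube3 was not called.

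Among co-receptors and surface modifiers, 7 of 8 genes were tested, and 4 were called with Dex in Sox7+/- cells and 3 in Sox7-/- cells. Boc, a co-receptor that binds the ligand, rose from 9.94 ± 2.63% to 407 ± 34.1% in Sox7+/- cells (SD, n = 3) and from 18.5 ± 1.92% to 222 ± 14.1% in Sox7-/- cells. The log2 differences were 5.39 (adjusted p = 3.23e-09) and 3.59 (adjusted p = 4.24e-08), and the responses differed by -1.80 (adjusted p = 0.000646), or by -0.86 on the deposited table, under 2-fold. The Sox7+/- ES level of Boc lay near the lowest signals of probes well above background on those arrays (5.81 to 8.15%). The size of its rise is thus uncertain, and in Sox7+/- cells it ran from 3.65 to 5.53 under the alternative runs. Cdon, the related co-receptor, fell by 1.64 (adjusted p = 6.63e-07) and 1.12 (adjusted p = 1e-05), although its other tested probe was not called. Lrp2, the endocytic receptor megalin, rose by 1.54 (adjusted p = 0.000952) and 3.33 (adjusted p = 2.71e-06), and was lower in Sox7-/- than in Sox7+/- ES cells by 2.31 (log2 difference -2.31, adjusted p = 0.000172). Gpc3, a glypican that competes for the ligand, fell by 1.76 in Sox7+/- cells (adjusted p = 0.00656), with -1.08 in Sox7-/- cells (adjusted p = 0.058). Boc and Cdon thus moved in opposite directions with Dex.

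In signal transduction inside the cell, 13 of 15 genes were tested, and 3 were called with Dex in Sox7+/- cells and 2 in Sox7-/- cells. Evc and Evc2, which encode partners that transmit the Smo signal at the base of the cilium, were both higher in Sox7-/- XEN-like cells. Evc was 20.8 ± 2.57% in Sox7+/- and 101 ± 6.10% in Sox7-/- XEN-like cells (log2 difference 2.29, adjusted p = 7.54e-07). Evc2 was 464 ± 6.31% and 1240.2 ± 28.1% (1.42, adjusted p = 2.8e-07). With Dex, Evc fell by 1.56 in Sox7+/- cells (adjusted p = 9.68e-07) against -0.31 in Sox7-/- cells, and the responses differed by 1.25 (adjusted p = 0.000373). Evc and Kif7, a ciliary kinesin that controls Gli processing, were called higher in Sox7-/- ES cells, by 1.04 (adjusted p = 7.86e-05) and 1.01 (adjusted p = 8.71e-05). Both sat at the 2-fold threshold. The call was lost for Evc without Sox7+/- ES replicate 1 (0.9995) or 3 (0.98) or Sox7-/- ES replicate 2 (0.99). For Kif7 it was lost without Sox7+/- ES replicate 2 (0.93) or Sox7-/- ES replicate 1 (0.99). Normexp background correction also removed both calls (0.82 for Evc and 0.69 for Kif7), as did spike-in scaling (0.89 and 0.85) and the deposited table (0.87 and 0.75). Scaling to the median of probes well above background did so as well (0.99 and 0.96). The Dex response of Kif7 differed between the genotypes by -1.13 (adjusted p = 0.000641). This difference was under 2-fold with normexp background correction (-0.89), with spike-in scaling (-0.73) and on the deposited table (-0.58).

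Gsk3b, a kinase that primes Gli proteins for processing, rose with Dex by 1.09 (adjusted p = 1.5e-06) and 1.40 (adjusted p = 1.69e-07), and Dzip1, a ciliary zinc-finger protein gene, by 1.06 (adjusted p = 1.88e-05) and 1.31 (adjusted p = 3.05e-06). In Sox7+/- cells both calls were lost with spike-in scaling (0.61 for Gsk3b and 0.58 for Dzip1) and on the deposited table (0.64 and 0.44). Scaling to the median of probes well above background also removed both (0.98 and 0.95). Gsk3b lost its call with quantile normalization too (0.88). Dzip1 lost it with normexp background correction (0.78) and without replicate 2 of the Sox7+/- XEN-like cells (0.96). In Sox7-/- cells Dzip1 lost its call with normexp (0.90) and on the deposited table (0.93). Of the other 2 tested probes of Gsk3b, 1 was called higher in Sox7-/- cells and none in Sox7+/- cells, and the other tested probe of Dzip1 was not called with Dex. In cilium transport all 8 genes were tested, and only Ift172, a subunit of the transport complex, was called, lower with Dex in Sox7-/- cells (-1.02, adjusted p = 0.00207). That call was lost without replicate 2 of the Sox7-/- ES cells (-0.97) and without replicate 1 of the Sox7-/- XEN-like cells (-0.97). It was also lost with normexp background correction (-0.82), with quantile normalization (-0.98) and on the deposited table (-0.88).

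Known target genes of the pathway in other tissues moved in both directions, with 2 called higher and 4 lower with Dex in each genotype, of 11 tested. The 4 lower genes were the same in both genotypes. The higher genes were Ccnd2 and Nkx6-1 in Sox7+/- cells, and Ccnd2 and Mycn in Sox7-/- cells (Mycn from 1.07 to 1.23 under the alternative runs). Ccnd1, the cyclin D1 gene, fell from 321 ± 12.3% in Sox7+/- and 380.4 ± 7.62% in Sox7-/- ES cells (SD, n = 3) to below background, at least 29.3-fold and 50.0-fold lower (group means 2.50% and 2.44%, adjusted p = 1.11e-07 and 5.33e-08). Bmp4, a BMP ligand gene, fell by 5.87 (adjusted p = 9.36e-07) and by 6.92 (adjusted p = 2.08e-07). In ES cells it was higher in the Sox7-/- line by 1.56 (adjusted p = 0.0139). That call was lost with the slide as a block (1.12, adjusted p = 0.399) and with spike-in scaling (1.40, adjusted p = 0.0501). Igfbp3, an IGF-binding protein gene, fell below background in XEN-like cells, at least 4.94-fold and 1.51-fold (adjusted p = 6.65e-08 and 3.56e-06), and in Sox7-/- ES cells it was well above background on 2 of 3 arrays. It was called lower in Sox7-/- than in Sox7+/- ES cells, with log2 differences from -3.17 to -1.21 under the alternative runs. Its Dex call in Sox7-/- cells was lost with normexp background correction (-0.54) and on the deposited table (-0.69).

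Ccnd2, the cyclin D2 gene, rose by 1.75 (adjusted p = 8.77e-08) and 1.47 (adjusted p = 2.52e-07), from 325 ± 6.81% to 1094 ± 104% in Sox7+/- and from 102 ± 9.91% to 283 ± 16.9% in Sox7-/- cells. It was lower in Sox7-/- cells in both states, by 1.95 in XEN-like (log2 difference -1.95, adjusted p = 5.85e-07) and 1.67 in ES cells (-1.67, adjusted p = 7.47e-07). Nkx6-1, a homeobox gene of the ventral neural tube, rose by 1.67 in Sox7+/- cells (adjusted p = 1.77e-05) and was lower in Sox7-/- XEN-like cells (-1.76, adjusted p = 6.83e-05). Sfrp1, a Wnt antagonist gene, fell by 1.75 with Dex in Sox7+/- cells (adjusted p = 8.02e-05) and fell by 3.42 in Sox7-/- cells (adjusted p = 3.99e-07). It was higher in Sox7-/- ES cells by 1.67 (adjusted p = 0.00032). Foxf1, Foxf2 and Nkx2-2 were called in no comparison, and Osr1, Foxl1 and Tbx2 were too dim to be tested.

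**Figure D3:**
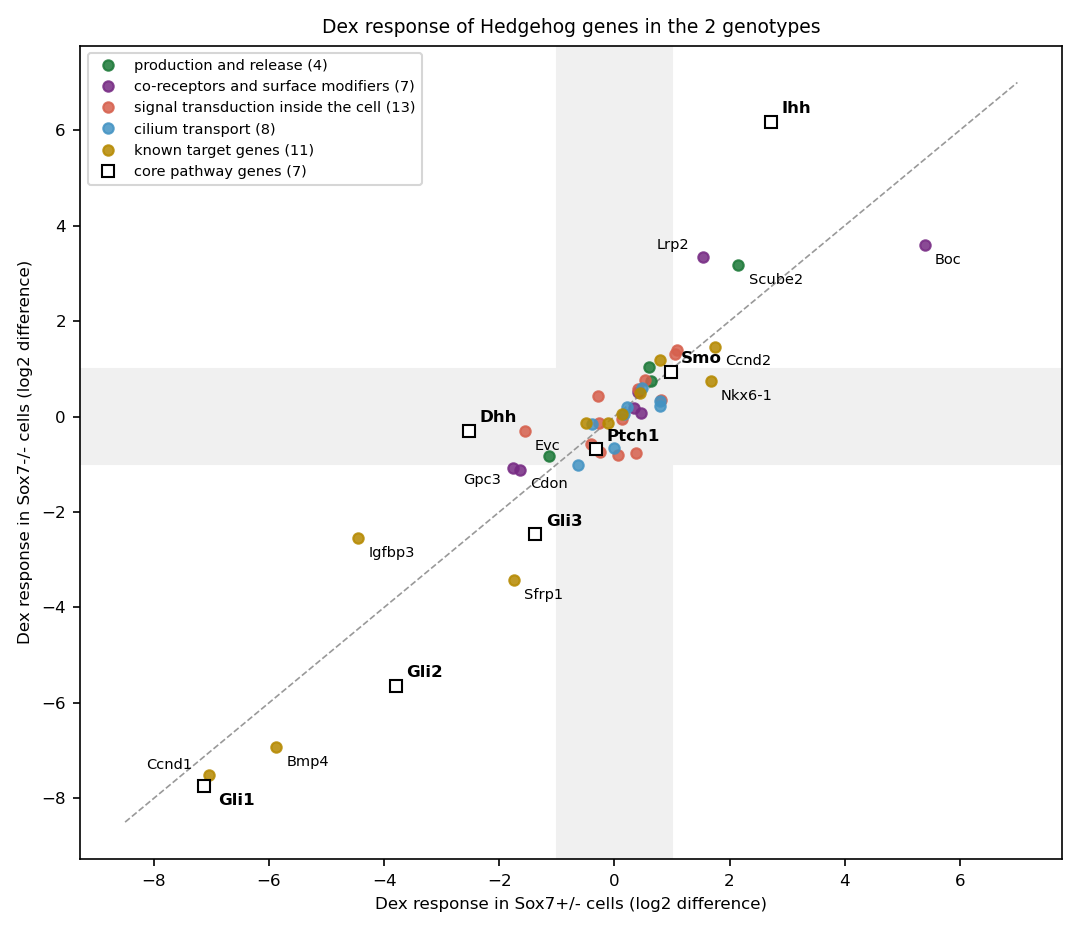
Log2 Dex response in Sox7-/- cells against that in Sox7+/- cells, for the brightest probe of 43 other Hedgehog genes coloured by role and of the 7 core genes tested (open squares), with the bands within 2-fold in grey and equal responses on the dashed line. Ihh (2.72 and 6.18) lies far above the line, Boc (5.39 and 3.59) below it, and Gli1 and Ccnd1 at the lower left are below background in XEN-like cells.

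The genes whose levels followed those of Ihh most closely over the 12 arrays, out of 18964 compared, were 4933426M11Rik, Bmp2, Tmem150a, Pga5 and Sord (Pearson r on log2 values from 0.997 down to 0.996). The 12 arrays form 4 groups, so this likeness mainly describes 4 group means. Bmp2, a BMP ligand gene, went from 183 ± 9.71% to 1005 ± 48.2% with Dex in Sox7+/- cells (SD, n = 3) and from 64.2 ± 6.35% to 1828 ± 52.7% in Sox7-/- cells. Its group order was that of Ihh. The genes most like Ptch1 were Plxnd1, a transcript with no gene symbol (probe A_30_P01029945), Mbd4, Cacna1h and Col8a2 (r from 0.979 down to 0.948). In Sox7+/- and Sox7-/- XEN-like cells A_30_P01029945 averaged 3.66% and 2.25%, and Col8a2 5.08% and 3.49%. These means lay under the lowest signals of probes well above background on those arrays (6.79 to 12.3%), so their likeness rests partly on undetected signal.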

How the data were processed

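The authors hybridised Cy3-labelled RNA to 1-colour Agilent 8x60K arrays. Agilent Feature Extraction 10.7.3.1 gave the processed intensity of each spot, background-subtracted within each array. The deposited series table matched the mean spot intensity to within 0.498%. It was used as an alternative only, without background subtraction or scaling between arrays. Here, spots marked as outliers were left out, each array's processed intensity was divided by its own 75th percentile (252 to 414 intensity units) and put on the log2 scale, and spots of a probe were averaged. The 25938 probes that passed detection in every array of at least 1 group entered 1 fit of the 12 arrays in limma 3.58.1 (R 4.3.3), and p-values were adjusted by Benjamini-Hochberg over these probes in each of 5 comparisons. No spot was saturated. Replicates correlated at r = 0.982 to 0.996. The fit was also run on simulated arrays with independent noise and no slide, culture or clone effect, so that run does not bear on such effects. Probe positions are mm9, and promoters are RefSeq sequences on GRCm38.p6. The genes and lists were chosen with earlier results of these data known. The genes named are all core genes, the listed genes called in a comparison (up to 3 per role and comparison by size of change), the 5 genes most like Ihh and the 5 most like Ptch1, and Sox7. Mycn, other listed genes named as untested or not called, and markers named as examples were added after their values were seen.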

Additional observations from a re-analysis of the deposited data

Results flagged for a closer look

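The difference of the Dex response between Sox7-/- and Sox7+/- cells was tested for each gene (limma, Benjamini-Hochberg adjusted p), and these genes passed. Of the core genes, Ihh differed by 3.46 (2.72 in Sox7+/- against 6.18 in Sox7-/- cells), Gli2 by -1.84 (-3.80 against -5.64, both with XEN-like values below background) and Gli3 by -1.09 (-1.37 against -2.46). Of the other Hedgehog genes, the response was more positive in Sox7-/- cells for Scube2 (1.02), Lrp2 (1.80), Evc (1.25) and Igfbp3 (1.90). It was more negative for Boc (-1.80), Kif7 (-1.13) and Sfrp1 (-1.67). Igfbp3 was below background in both XEN-like groups.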

How the results depend on the processing

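The calls for Ihh held in every comparison and under every alternative run. The counts of core probes called, 5, 4, 2, 2 and 3 (Dex in Sox7+/- and in Sox7-/- cells, genotype in XEN-like and in ES cells, difference of the responses), were the same with the replicate block, whose numbers did not pair the samples (r from -0.051 to 0.125). With only probes bright on every array, 5 core probes could be tested, of which 2, 2 and 1 were called in the Dex responses and between ES cells. Without the minimum fold the counts were 8, 7, 5 and 4 in the Dex responses and the genotype comparisons. The deposited table left 1 in XEN-like cells, since Gli3 fell under 2-fold (-0.73), and 1 in ES cells, since Gli2 did (0.99). Normexp background correction (0.91) and the slide block (0.87) also left 1 in ES cells for that reason. Leaving out 1 array gave 4 to 6, 4 to 5, 2, 2 and 2 to 3 core probes called. The sign of the Dhh difference with Dex in Sox7-/- cells turned with normexp (0.095) and the deposited table (0.072), and it ran from -1.39 to 0.26 with 1 array left out. The Ptch1 genotype differences turned in XEN-like cells with spike-in scaling (0.019) and the deposited table (0.14), and in ES cells with spike-in scaling (-0.024). All 39 changes of sign were in differences that were not called. Between XEN-like cells the dim Ptch1 probe A_52_P598605 turned with quantile normalization (0.087), spike-in scaling (0.23), the deposited table (0.196), the slide block and within slide 2 (both 0.103), and ran from -0.19 to 0.17 with 1 array left out. There Gli1 turned with quantile normalization (0.105), spike-in scaling (0.035) and the deposited table (0.13) and ran from -0.45 to 0.054, Gli2 turned with the deposited table (0.15), and Dhh ran from -0.039 to 1.64. Between ES cells the slide block turned Dhh (0.503) and A_52_P598605 (0.11), the latter running from -0.53 to 0.13. With Dex A_52_P598605 turned with normexp in Sox7+/- cells (0.14), and in Sox7-/- cells it ran from -0.43 to 0.23. For the response difference A_52_P598605 turned with normexp (-0.16) and the slide block (-0.0091) and ran from -0.14 to 0.51. Ptch1 A_55_P2107292 turned with spike-in scaling (0.044) and the deposited table (0.086). Smo A_51_P258766 turned with normexp (0.0080), quantile normalization (0.058), spike-in scaling (0.36) and the deposited table (0.353), and A_55_P2121484 with spike-in scaling (0.18) and the deposited table (0.12), running from -0.44 to 0.043. Dhh gained a call between ES cells when only the arrays compared were fitted (-1.17, adjusted p = 0.00964) and for the response difference on the deposited table (1.36, adjusted p = 0.00137). The Gli3 response difference was under 2-fold also with normexp (-0.67), quantile normalization (-0.90) and the slide block (-0.93), and that of Gli2 on the deposited table (-0.84). Dhh with Dex in Sox7+/- cells was not called with normexp (-0.72, adjusted p = 0.0551) or with any 1 of 4 arrays left out. Of the other Hedgehog genes, 844 called values kept their call under an alternative, 54 lost it and none changed sign, the losses being spread over Scube2, Scube3, Hhat, Cdon, Boc, Evc, Kif7, Gsk3b, Dzip1, Ift172, Bmp4, Igfbp3, Nkx6-1 and Sfrp1. Their counts of calls without the minimum fold were 32, 30, 11, 26 and 17.

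Scaling moved the median of all probes, from 0.15 to -0.33 with spike-ins for Dex in Sox7+/- cells, from 0.002 to 0.25 between XEN-like cells and from -0.089 to 0.31 for the response difference, so values are relative to that shift. Over all probes, 2821 higher and 3627 lower calls with Dex in Sox7+/- cells became 1262 and 5461 with spike-ins and 850.0 and 3486 on the deposited table. Between XEN-like cells 1004 and 943 became 1644 and 495, and 1164 and 131. For the response difference 1723 and 819 became 3063 and 348, and 1899 and 222. Normexp gave 3459, 4621, 709, 898 and 1383 calls in the 5 comparisons, against 6448, 7475, 1947, 2235 and 2542. The filter on every array gave 3148, 4117, 929, 854 and 1259, and no minimum fold 16232, 16932, 8936, 11697 and 7049. The deposited table gave 1295 between XEN-like and 1033 between ES cells, and no filter 5362 for the response difference. Gli1 and Gli2 in XEN-like cells, and Shh, Hhip and much of Dhh, were too dim for more than a bound. The cause of these changes was not tested.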
